A study of Mus musculus with 7 samples.

Results

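The 92 potassium channel genes of the mouse were followed in RNA-seq libraries of hippocampal neurospheres from control and Med23 conditional knockout (CKO) mice. Med23 is a subunit of the Mediator complex, which links transcription factors to RNA polymerase. The channel genes were all the gene symbols that begin with Kcn and go on with letters and a number, among 24346 genes with a deposited expression value. Each of the 7 libraries came from the primary neurospheres, free-floating clusters of dividing neural stem and progenitor cells, of a single 2-month-old mouse of the C57/BL6 strain. The 3 Med23 CKO mice (KO_117, KO_214 and KO_218) carried floxed Med23 alleles and Nestin-CreER, a Cre recombinase driven by the Nestin promoter and switched on by tamoxifen, which removes exons 5 to 7. The 4 control mice (WT_215, WT_116, WT_213 and WT_220) are labelled wild type, while the methods of the study describe its controls as littermates that carried floxed alleles without Cre. Both groups had received tamoxifen at 200 mg/kg a day for 5 days, and the neurospheres were grown for 8 days. Nestin-driven Cre is not restricted to neural stem cells and can also be active in other cells, including endothelial cells.

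Potassium channels let potassium ions leave or enter the cell and so set the resting potential and the length of electrical signals. Voltage-gated channels open when the membrane is depolarized, inward rectifiers and tandem pore-domain leak channels hold the potential near rest, and a further group opens with intracellular calcium or sodium. Auxiliary subunits form no pore and set how fast, at what voltage and in what number the pores work. In the hippocampus these genes are best known from neurons, while astrocytes and oligodendrocyte precursors use inward rectifiers to take up potassium, and in progenitors the resting potential moves with the cell cycle.

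Values are in FPKM, fragments per kilobase of transcript scaled to the mapped fragments of the library, which allows levels to be compared between genes. Samples are given throughout in the order WT_215, WT_116, WT_213 and WT_220 for control, then KO_117, KO_214 and KO_218 for Med23 CKO. A fold change is the difference, Med23 CKO minus control, in mean log2(FPKM + 1), which understates the change of low genes. It was tested by limma for the 14151 genes with a mean of at least 0.5 FPKM, of which 53 were potassium channel genes, and, for single genes, by a two-sided exact permutation test whose smallest possible p is 0.0286. The mice of a group were separate animals, and how many fragments were sequenced is unknown.

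Med23 itself, the targeted gene, was at 11.4, 10.3, 12.9 and 10.1 FPKM in control mice, against 9.97, 9.27 and 8.12 FPKM in Med23 CKO. The groups did not overlap, and the difference was -0.26 on the log2 scale (exact permutation p = 0.0571). Across the libraries the neural stem cell markers Nes and Sox2 were at 61.1 FPKM or more, and the 10 neuron markers summed to between 74.6 and 195 FPKM, with Map2 at 24.2 to 147 FPKM, Tubb3 at 10.2 to 27.0 FPKM and Rbfox3 at 0.847 to 4.23 FPKM. Markers of the oligodendrocyte lineage ran in opposite directions across libraries. Sox10 was at 31.2, 70.3, 32.6 and 16.3 FPKM in control mice, against 2.97, 67.5 and 28.5 FPKM in Med23 CKO. Olig1, which is also found in progenitors, was at 1361, 437, 603 and 1943 FPKM in control mice, against 1586, 214.5 and 334 FPKM in Med23 CKO. KO_214 stood apart with the highest summed FPKM of the microglia (526 against 32.0 to 159 in control), endothelial (83.9 against 6.30 to 47.5) and mural cell lists (278 against 53.4 to 103). The microglia marker Tmem119 was at 4.04 FPKM in KO_214 and at 0.0269 to 0.414 FPKM elsewhere, while Cx3cr1 was at 0.157 FPKM in KO_214 and at most 0.782 FPKM. The astrocyte list was also highest in KO_214 (654 against 332 to 492 in control). Of that list, Gfap (321 against 17.8 to 138 FPKM in control) and Aqp4 (14.2 against 0.513 to 5.22) were highest in KO_214. Aldh1l1, Slc1a3 and S100b were highest in control libraries. WT_215 stood apart with 649.6 FPKM over a choroid plexus list, 630 of it from Ttr, against 9.45 to 69.7 elsewhere. In bulk RNA of this kind, fewer cells of a type and less RNA per cell cannot be told apart.

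No potassium channel gene passed the adjusted threshold, and neither did any other of the 14151 genes (percent called 0%). At an unadjusted limma p under 0.05, 4 of the 53 tested channel genes were lower in Med23 CKO, namely Kcna2, Kcnd2, Kcna3 and Kcnh2, which is 7.55% against 0.996% of all genes tested. All of them encode pore-forming subunits of voltage-gated channels, and so does Kcna5, which ran the other way. The 53 hold many such genes, with 13 delayed rectifier and A-type, 4 KCNQ and 2 EAG, ERG and ELK genes. In the other direction 1 gene, Kcna5, was higher, which is 1.89% against 0.502% of all genes tested. The shares over all genes are small for this threshold. In simulated data 5.54% of unchanged genes were under it, both directions together. The Med23 CKO and control values did not overlap for Kcna2 and Kcnd2 (3.77% of the 53, against 1.53% of all genes lower without overlap), and for none of the 53 in the higher direction (0.784% of all genes). Of the 10 neuron markers 1, the interneuron gene Gad1, was lower as well, at 11.6, 8.92, 12.2 and 11.1 FPKM in control mice, against 5.24, 2.21 and 4.42 FPKM in Med23 CKO (log2 fold change -1.32, exact permutation p = 0.0286). The Gad1 groups did not overlap. Of the 10 neuron markers 8 had a fold change below 0, among them Gad2 at -0.30 with overlapping groups. The 2 above 0 were Tubb3 (0.30) and Dcx (0.21). The part of neurons in the channel values was not tested. The lower count went to 2 without WT_215 (0.558% of all genes), 7 without WT_116 (1.43%) and 8 without KO_117 (2.90%). It went to 1 without WT_220 (0.537% of all genes), KO_214 (1.45%) or KO_218 (0.495%). The higher count went to 0 without WT_213 (0.473% of all genes) or KO_218 (0.982%), 2 without KO_214 (0.551%) and 3 without KO_117 (2.5%). By the exact permutation test, 0 of the 53 genes were below 0.05 in either direction.

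**Figure D1:**
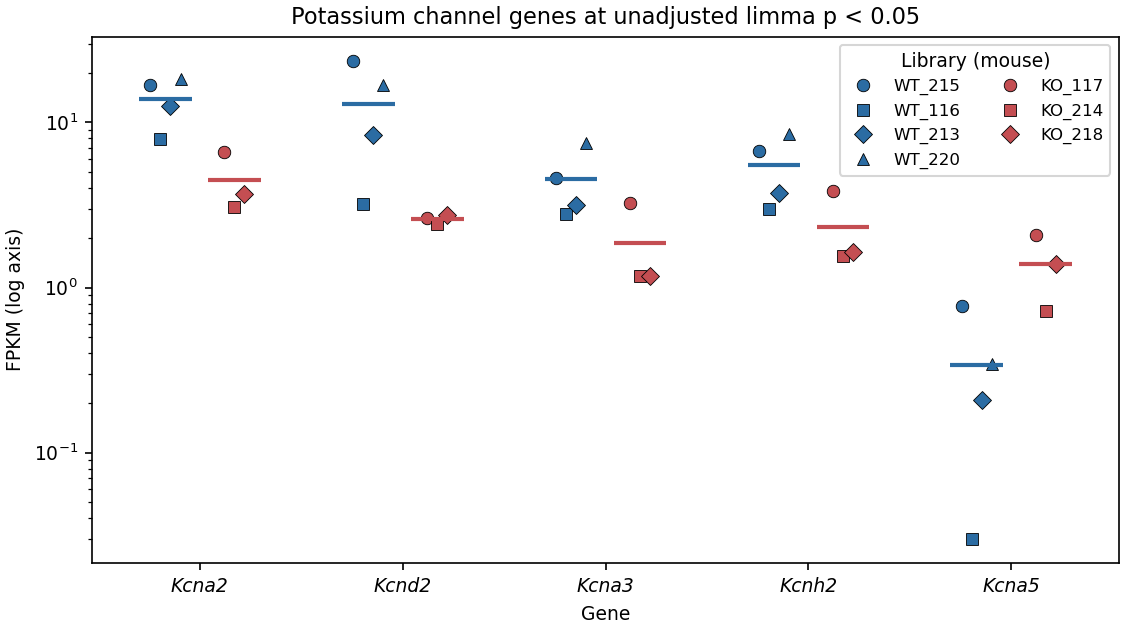
FPKM on a log axis of the 5 potassium channel genes at unadjusted limma p under 0.05, with 1 point per library (blue control, red Med23 CKO) and a line at each group mean. The 3 Med23 CKO points lie below all control points for Kcna2 and Kcnd2, and the groups overlap for Kcna3, Kcnh2 and Kcna5.

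Kcna2 encodes a shaker-related delayed rectifier subunit that, in neurons, sits along axons and limits repetitive firing. Its level was 16.9, 7.89, 12.6 and 18.4 FPKM in control mice, against 6.61, 3.09 and 3.71 FPKM in Med23 CKO. Every Med23 CKO value was under the lowest control value, and the means were 13.9 ± 4.71 (SD, n = 4) and 4.47 ± 1.88 FPKM (SD, n = 3). The log2 fold change was -1.44 with a standard error of 0.34 (exact permutation p = 0.0571, limma adjusted p = 0.9999), and it stayed between -1.70 and -1.26 when single libraries were left out. It was the only one of the 5 genes that kept an unadjusted limma p under 0.05 without each of the 7 libraries in turn.

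Kcnd2 encodes a pore of the A-type current, a fast current that opens below the firing threshold and is shaped by the Kcnip and Dpp partner proteins. It was at 23.7, 3.20, 8.34 and 16.8 FPKM in control mice, against 2.64, 2.42 and 2.77 FPKM in Med23 CKO. The control libraries spread over a wide range and WT_116 came close to the Med23 CKO values, which were nearly equal to each other. The means were 13.003 ± 9.06 (SD, n = 4) and 2.61 ± 0.175 FPKM (SD, n = 3), with a log2 fold change of -1.67 and a standard error of 0.57 (exact permutation p = 0.0571). Without WT_220, KO_214 or KO_218 the unadjusted limma p was no longer under 0.05, with fold changes from -2.15 to -1.30 over all libraries left out. The other A-type pores had smaller fold changes. Kcnd3 was at 55.6, 18.5, 34.2 and 51.9 FPKM in control mice, against 72.0, 11.6 and 29.0 FPKM in Med23 CKO (log2 fold change -0.33, standard error 0.62), and the low Kcnd1 had a fold change of -0.15. Whether the fold changes of these paralogs differ from each other was not tested.

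Kcna3, a delayed rectifier subunit known from microglia, T cells and proliferating cells, was at 4.62, 2.79, 3.15 and 7.56 FPKM in control mice, against 3.24, 1.17 and 1.18 FPKM in Med23 CKO. Kcnh2, the ERG channel that repolarizes the heart and is also found in progenitor cells, was at 6.70, 2.98, 3.72 and 8.55 FPKM in control mice, against 3.83, 1.55 and 1.64 FPKM in Med23 CKO. In both genes KO_214 and KO_218 lay below all control libraries and KO_117 lay within their range. The log2 fold changes were -0.95 for Kcna3 (standard error 0.38) and -0.93 for Kcnh2 (standard error 0.39), each with an exact permutation p of 0.143. Both left the unadjusted threshold without WT_215, WT_220, KO_214 or KO_218, with quantile normalization and without a filter on low values.

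Kcna5, a delayed rectifier subunit of heart and smooth muscle that has also been described in glia, ran the other way at a far lower level. It was at 0.770, 0.0300, 0.208 and 0.347 FPKM in control mice, against 2.08, 0.726 and 1.39 FPKM in Med23 CKO. Only KO_214 overlapped with control, where it was just below WT_215. The means were 0.339 ± 0.315 (SD, n = 4) and 1.40 ± 0.679 FPKM (SD, n = 3), and the log2 fold change was 0.83 with a standard error of 0.28 (exact permutation p = 0.0857). It left the unadjusted threshold without WT_116, WT_213, KO_117 or KO_218, and with quantile normalization.

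The mouse genome holds several of these genes close together (GENCODE M21 on GRCm38, which is mm10). Kcna3 lies on the plus strand of chromosome 3 from 107036169 to 107038070, and Kcna2 follows it on the same strand from 107101146 to 107115005, with Kcna10 next at 107183056 to 107195721. Kcna5 lies on the minus strand of chromosome 6 from 126532551 to 126535412, beside Kcna1 (126640397 to 126646384) and Kcna6 (126708329 to 126740674). Kcna10, listed between 0 and 0.116 FPKM, was too low to be tested, and Kcna1 and Kcna6 had log2 fold changes of -0.20 and -0.07 next to Kcna5 at 0.83. Kcnd2 lies elsewhere on chromosome 6, from 21215503 to 21729805 on the plus strand, and Kcnh2 on the minus strand of chromosome 5 from 24319589 to 24351604. None of the 5 genes shares an exon with an annotated gene on the opposite strand.

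The 250 bases before the RefSeq start (GRCm38.p6) are shown for Kcnd2 and Kcna3, which were lower in Med23 CKO at unadjusted p under 0.05, and for Kcna5, which was higher, as examples with different base composition. Capitals mark GGGCGG, the core letters of an Sp1 binding motif, searched on both strands. The windows are chr6:21215096-21215345 on the plus strand for Kcnd2, chr3:107035912-107036161 on the plus strand for Kcna3 and chr6:126535556-126535805 on the minus strand for Kcna5.
Kcnd2: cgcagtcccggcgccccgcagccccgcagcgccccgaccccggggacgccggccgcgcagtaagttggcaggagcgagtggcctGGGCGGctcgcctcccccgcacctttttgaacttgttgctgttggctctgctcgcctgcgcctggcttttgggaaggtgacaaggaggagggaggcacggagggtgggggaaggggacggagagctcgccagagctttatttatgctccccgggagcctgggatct
Kcna3: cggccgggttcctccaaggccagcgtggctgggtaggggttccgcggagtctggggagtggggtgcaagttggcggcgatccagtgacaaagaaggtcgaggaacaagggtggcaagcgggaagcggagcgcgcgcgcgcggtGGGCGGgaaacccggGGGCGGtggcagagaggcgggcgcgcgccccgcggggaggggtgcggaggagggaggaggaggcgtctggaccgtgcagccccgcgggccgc
Kcna5: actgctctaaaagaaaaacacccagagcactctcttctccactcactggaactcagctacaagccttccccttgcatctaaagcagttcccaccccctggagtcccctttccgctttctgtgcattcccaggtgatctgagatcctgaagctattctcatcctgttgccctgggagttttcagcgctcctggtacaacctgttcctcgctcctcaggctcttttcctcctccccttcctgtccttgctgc
The Kcnd2 window had 68.8% G and C with 22 CG pairs, and the Kcna3 window had 74.4% with 31 CG pairs, which makes both rich in CG pairs beside the median of all windows (52.4% and 6 CG pairs). The Kcna5 window had 53.2% G and C with 3 CG pairs. The window of Kcna2, not printed because it overlaps an exon of the gene, had 62.4% with 18 CG pairs, and that of Kcnh2, at a start inside the gene, had 73.6% with 14 CG pairs. GGGCGG occurred once in Kcnd2, 2 times in Kcna3 and 3 times in Kcnh2, and it occurred in neither Kcna2, the lower gene with the smallest p, nor Kcna5. It was found in 38.1% of the 63 windows of tested channel genes and in 32.7% of all 32851 windows. The ETS motif core CCGGAAG was found in 3.17% of the channel windows and 6.91% of all windows, and the letters TATAAA in 4.76% and 12.4%. The immediate early factor motif GCGTGGGCG and the cyclic AMP response element TGACGTCA were each found in 0 channel windows, against 0.536% and 1.55% of all windows. A match in these letters is a description of sequence and was not tied to binding of any factor.

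Over all 53 tested genes the median log2 fold change was -0.20, beside -0.03 over all 14151 genes. A fold change below 0 was found for 36 of the 53 (67.9%, beside 56.2% of all genes), and above 0 for 17. The median lay between -0.24 and -0.13 when single libraries were left out. The spread between libraries was wide: the ratio of the highest to the lowest library had a median of 5.46 over the 52 channel genes without a 0, and of 2.33 over 14027 of all genes. The channel genes were also lower, with a median of 2.44 FPKM among the tested genes beside 11.1 FPKM for all genes tested, and the part that this played in the ratio was not tested. Of all 92, 74 were above 0 in every library, and Kcnk15 and Kcnk16 were listed at 0 in all 7. A mean of at least 10 FPKM was reached by 8 of the 92 (8.70%, beside 30.9% of all genes). Summed over the 92 genes, FPKM came to 512, 288, 358 and 492 in control and to 431, 309 and 303 in Med23 CKO, which is between 0.0577% and 0.103% of each library's total.

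**Figure D2:**
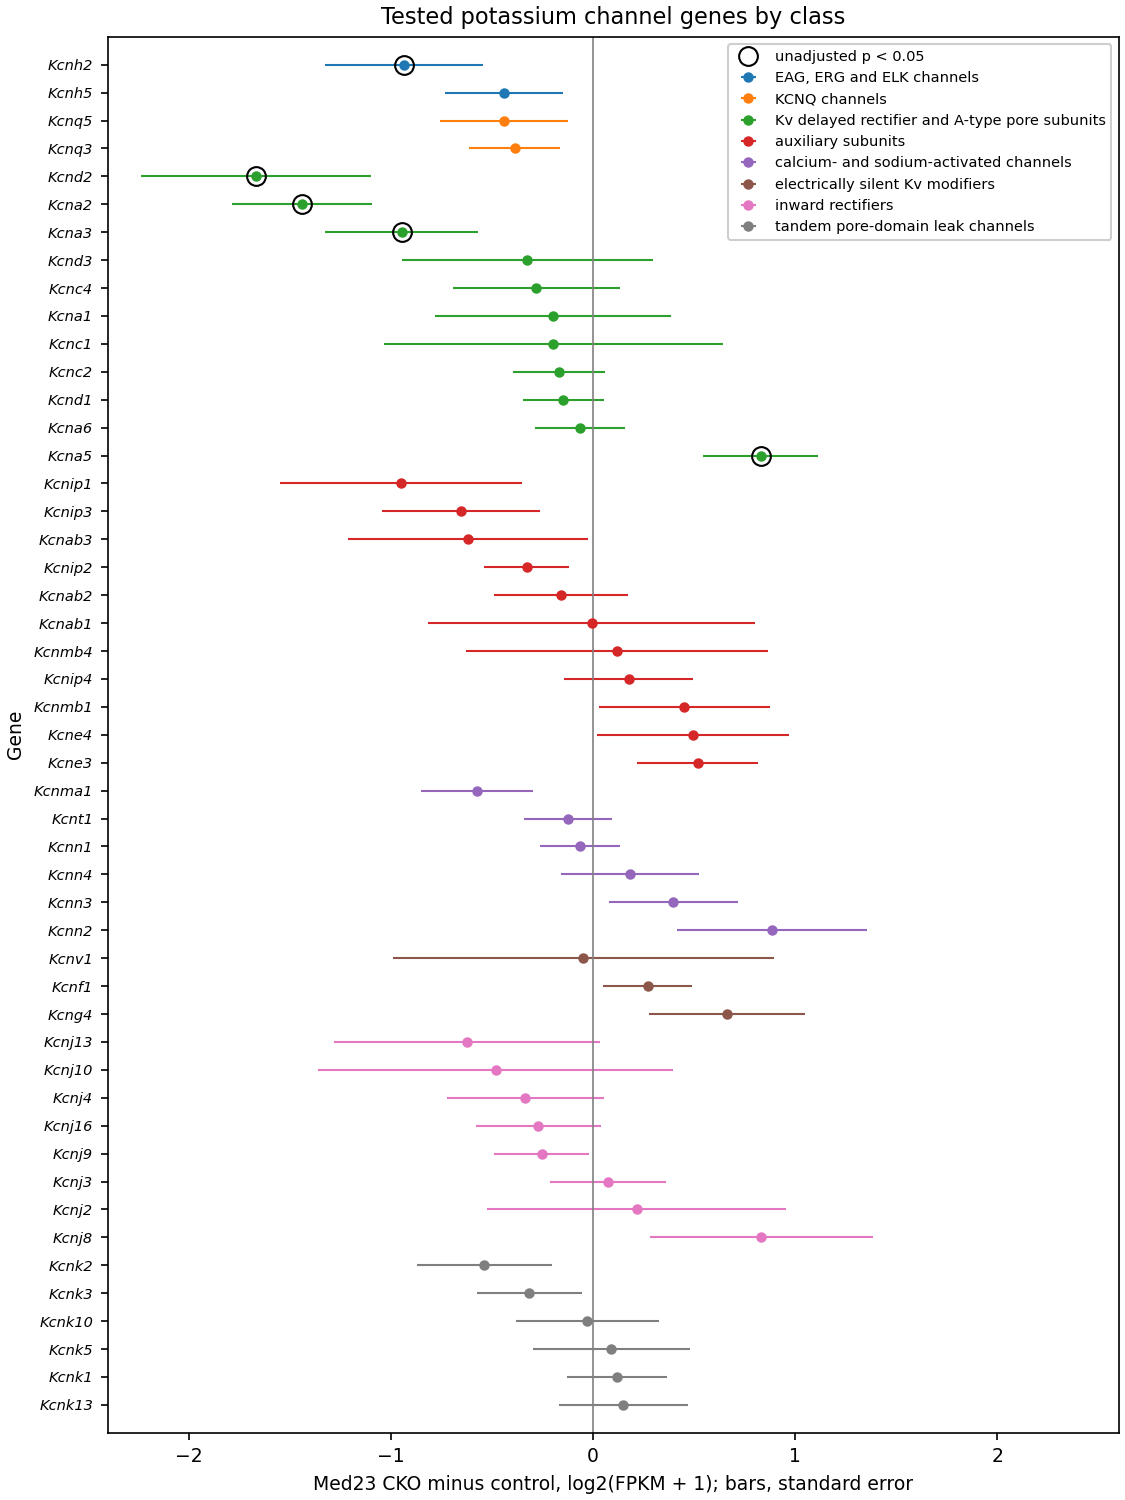
Log2 fold change (Med23 CKO minus control, log2(FPKM + 1)) of 49 of the 53 tested potassium channel genes (the other 4 are not shown), by class, with the limma standard error as bars and a ring around genes at unadjusted p under 0.05. The ringed genes run from Kcnd2 at -1.67 to Kcna5 at 0.83, and 32 points lie left of 0.

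Among the 17 delayed rectifier and A-type pore genes, 13 were tested, 3 were lower and 1 was higher at unadjusted p under 0.05, and the median log2 fold change was -0.28. The highest was Kcnc1, a subunit of channels for fast spiking, at 49.3, 9.12, 39.0 and 76.2 FPKM in control mice, against 84.1, 11.2 and 27.5 FPKM in Med23 CKO. The single highest library belonged to Med23 CKO and the next to control, and its fold change of -0.20 had a standard error of 0.84. Kcna6, another delayed rectifier subunit, varied least among the channel genes with a mean of at least 5 FPKM, between 8.01 and 13.4 FPKM in control mice, against 8.82 to 9.65 FPKM in Med23 CKO (log2 fold change -0.07, standard error 0.22).

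The EAG, ERG and ELK channels had 8 members, of which 2 were tested, Kcnh2 as described above and Kcnh5 with a log2 fold change of -0.44. Of the 5 KCNQ genes, whose M-current channels damp excitability, 4 were tested and 0 passed the unadjusted threshold, while all 4 fold changes were below 0 with a median of -0.41. The log2 fold change was -0.44 for Kcnq5 and -0.39 for Kcnq3.

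The most abundant potassium channel gene was an auxiliary subunit. Kcnip3, a calcium-binding protein that binds A-type channels and, in the nucleus, DNA, was at 94.4, 37.6, 39.9 and 83.6 FPKM in control mice, against 48.7, 27.4 and 37.9 FPKM in Med23 CKO. The 2 highest values were control, but WT_116 and WT_213 lay within the Med23 CKO range, and the log2 fold change of -0.65 had a standard error of 0.39 (exact permutation p = 0.257). Kcnip1, of the same family, was at 26.7, 10.3, 24.0 and 27.5 FPKM in control mice, against 21.9, 3.30 and 13.5 FPKM in Med23 CKO (log2 fold change -0.95, standard error 0.60). The fold change was -0.26 without KO_214 and -1.46 without KO_117, where the unadjusted limma p was under 0.05. Kcnmb4, the neuronal beta subunit of the BK channel, was at 15.6, 5.73, 7.38 and 23.0 FPKM in control mice, against 42.9, 4.77 and 8.24 FPKM in Med23 CKO, so that KO_117 held the highest and KO_214 the lowest value. Kcnab2, a beta subunit of shaker-related channels, was between 5.05 and 12.9 FPKM in control mice, against 5.26 to 8.95 FPKM in Med23 CKO. Of the 15 auxiliary genes 11 were tested, 0 passed the unadjusted threshold, and the median fold change was -0.01.

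Among the 8 calcium- and sodium-activated channel genes, 6 were tested and 0 passed the unadjusted threshold, with a median log2 fold change of 0.06. Kcnma1, the BK pore that responds to both voltage and calcium, was at 7.40, 4.24, 7.45 and 7.48 FPKM in control mice, against 5.43, 2.80 and 4.23 FPKM in Med23 CKO. Of the control libraries WT_116 alone lay within the Med23 CKO range, and the log2 fold change was -0.57 with a standard error of 0.28 (exact permutation p = 0.0857). It was -0.37 without KO_214, and the unadjusted limma p was under 0.05 without WT_116 or KO_117 (-0.75 each) and with array weights. Kcnn2, a small-conductance calcium-activated channel, was at 2.36, 2.50, 3.39 and 0.791 FPKM in control mice, against 2.06, 9.28 and 4.98 FPKM in Med23 CKO. It had the largest positive fold change of the 53, 0.89 with a standard error of 0.47 (exact permutation p = 0.200), and the fold change came to 0.46 without KO_214, the library with the highest value. It came to 1.34 without KO_117, where the unadjusted limma p was under 0.05, as it was with quantile normalization and with array weights. Of the low genes outside the test, Kcnu1, a sperm channel, was between 0.400 and 0.966 FPKM in control mice, against 0.230 to 0.284 FPKM in Med23 CKO. It was singled out after its values were seen, because its groups did not overlap, and the share of all untested genes without overlap was not counted.

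The 10 electrically silent modifiers form no channel alone and join other subunits, and 3 of them were tested with 0 past the unadjusted threshold. Kcnv1, the highest, was at 10.6, 3.96, 10.1 and 11.4 FPKM in control mice, against 24.6, 0.547 and 18.1 FPKM in Med23 CKO. The Med23 CKO libraries held both the highest values and the lowest, and the log2 fold change of -0.05 had a standard error of 0.94. Without KO_214 it was 1.23, with an unadjusted limma p under 0.05, and without KO_117 it was -0.79.

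Of the 15 inward rectifier genes 8 were tested, 0 passed the unadjusted threshold, and the median log2 fold change was -0.26. Kcnj10, the main potassium uptake channel of astrocytes and of the oligodendrocyte lineage, was at 49.2, 68.8, 45.9 and 18.3 FPKM in control mice, against 5.47, 86.5 and 47.7 FPKM in Med23 CKO. Its lowest and highest values were both from Med23 CKO mice, and its log2 fold change of -0.48 (standard error 0.88) came to 0.63 without KO_117 and to -1.25 without KO_214. Kcnj16, which pairs with Kcnj10, did not share this spread and was between 5.89 and 16.3 FPKM in control mice, against 8.0 to 8.57 FPKM in Med23 CKO. Kcnj8, a pore of ATP-sensitive channels in pericytes and smooth muscle, was at 0.425, 0.695, 0.656 and 0.119 FPKM in control mice, against 0.135, 5.70 and 1.29 FPKM in Med23 CKO. Its high value was in KO_214, the library with the highest mural cell sum, and its log2 fold change of 0.83 (standard error 0.55) was 0.15 without KO_214 and 1.43, with an unadjusted limma p under 0.05, without KO_117. The part of mural cells in it was not tested. Summed over the 15 genes, inward rectifier FPKM was 72.6, 90.5, 67.2 and 40.2 in control and 17.8, 117.2 and 66.5 in Med23 CKO.

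The 14 tandem pore-domain leak channel genes had 6 tested members, 0 past the unadjusted threshold and a median log2 fold change of 0.03. Kcnk2, a leak channel opened by stretch and lipids, was at 20.9, 8.57, 14.7 and 21.1 FPKM in control mice, against 12.7, 7.98 and 10.7 FPKM in Med23 CKO. The groups overlapped, and the log2 fold change was -0.54 with a standard error of 0.33 (exact permutation p = 0.200). Without WT_116 it was -0.80, with an unadjusted limma p under 0.05. Kcnk1, an astrocyte leak channel, was between 7.21 and 12.4 FPKM in control mice, against 8.32 to 12.9 FPKM in Med23 CKO (log2 fold change 0.12, standard error 0.25). Kcnk4, chosen after its values were seen and too low to be tested, was between 0 and 0.0735 FPKM in control mice, against 0.0774 to 0.158 FPKM in Med23 CKO without overlap. These values are near the floor, and the share of all untested genes without overlap was not counted.

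**Figure D3:**
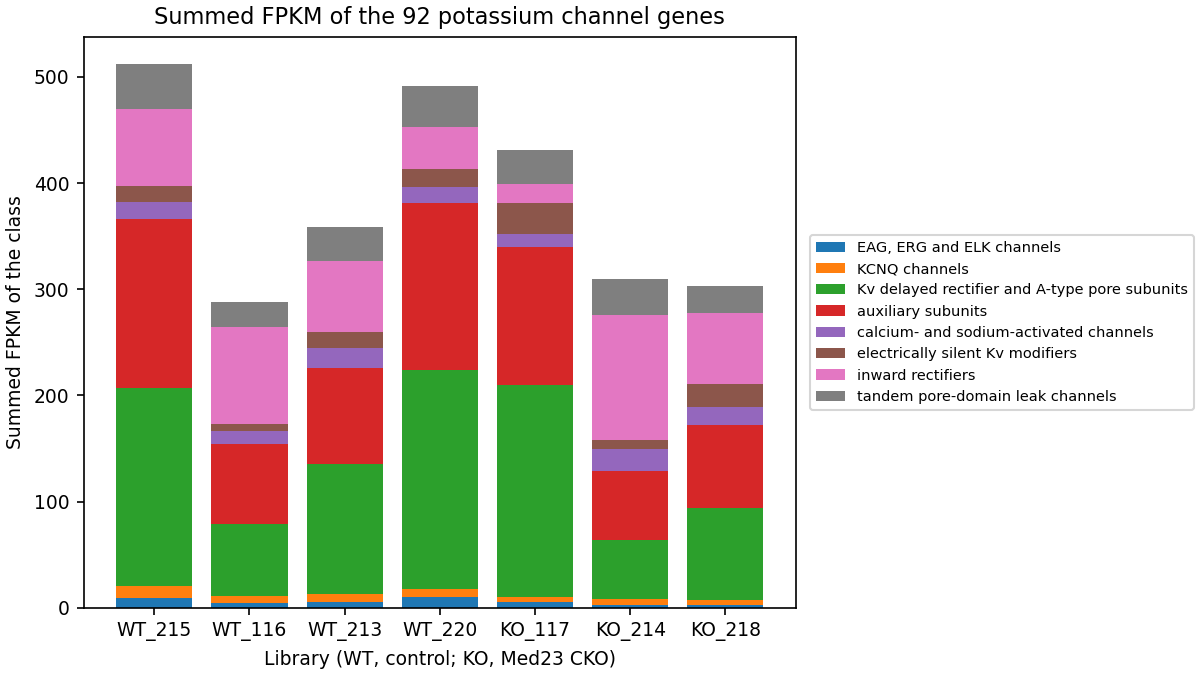
Summed FPKM (linear axis from 0) of the 92 potassium channel genes in each library, stacked by class. The inward rectifier share runs from 17.8 FPKM in KO_117 to 117.2 FPKM in KO_214, and the delayed rectifier and A-type share runs from 56.0 FPKM in KO_214 to 207 FPKM in WT_220.

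Sets of channel genes took opposite ends of the library range, whatever the group. Kcnc1, Kcnd3, Kcnmb4 and Kcnv1 were highest in KO_117, and of these Kcnd3, Kcnmb4 and Kcnv1 were lowest in KO_214. Kcnj10 ran the other way, and so did 3 genes singled out after their values were seen. Kcnj2, an inward rectifier, was at 1.83, 6.12, 4.86 and 0.931 FPKM in control mice, against 0.483, 9.83 and 4.72 FPKM in Med23 CKO. Kcna1, a delayed rectifier subunit, was at 3.84, 6.02, 3.30 and 1.83 FPKM in control mice, against 0.478, 6.70 and 4.33 FPKM in Med23 CKO, and Kcnab1, a beta subunit, was at 2.21, 8.94, 6.0 and 0.772 FPKM in control mice, against 0.403, 8.23 and 5.75 FPKM in Med23 CKO. All 3 were lowest in KO_117 and second lowest in WT_220. The oligodendrocyte lineage list was split. Sox10, Mbp and Mog had the same 2 lowest libraries, with Mog at 9.02 FPKM in WT_220, 2.28 FPKM in KO_117 and 36.3 to 141 FPKM in the other libraries. Olig1 and Olig2 had these 2 libraries as their highest and KO_214 as their lowest, with Olig2 at 701 FPKM in WT_220, 505 FPKM in KO_117 and 84.0 FPKM in KO_214. The stem cell marker Nes was highest in these libraries, at 186 FPKM in WT_220 and 240.5 FPKM in KO_117, and lowest in KO_214 at 61.1 FPKM. The part of these cell types in the channel values was not tested.

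**Figure D4:**
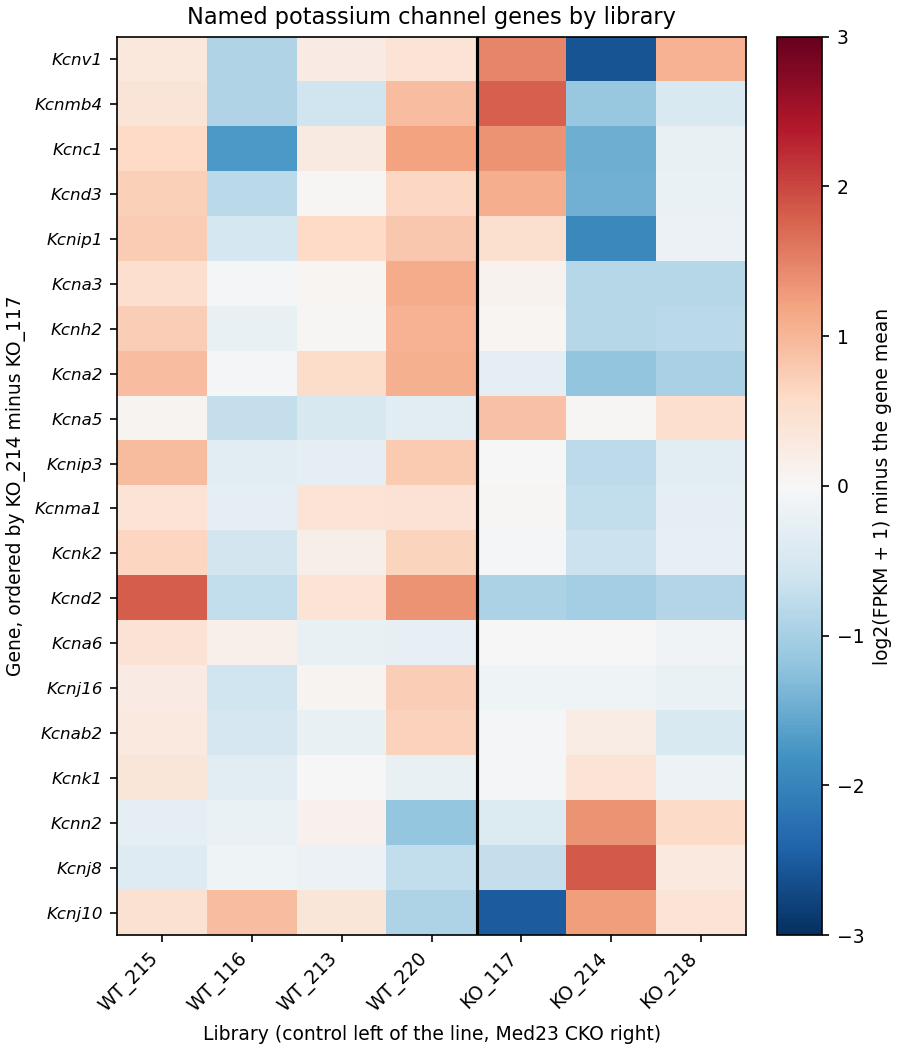
Log2(FPKM + 1) minus the gene's mean over the 7 libraries, for 20 named potassium channel genes (rows, ordered by KO_214 minus KO_117) and 7 libraries (columns, control left of the line). KO_117 and KO_214 are opposite at the top (Kcnv1, Kcnmb4, Kcnc1, Kcnd3) and at the bottom (Kcnj10). The Kcna2 and Kcnd2 rows are below the mean in all 3 Med23 CKO libraries, and so are Kcnj16 and Kcnk2, whose groups overlap.

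The library that held the highest value was KO_214 for 15 of the 53 genes, WT_220 for 13, WT_215 for 11, KO_117 for 6, WT_116 for 4, and WT_213 and KO_218 for 2 each. Over all genes tested WT_215 was highest for 6.54%, beside 20.8% of the channel genes, and KO_117 was highest for 23.6%, beside 11.3%. For KO_214 the shares were close, 25.4% of all genes beside 28.3% of the channel genes. The 15 genes highest in KO_214 included Kcnj10, Kcnj8, Kcnn2 and Kcnk1, and the 13 highest in WT_220 included Kcna2, Kcna3, Kcnh2 and Kcnip1. The lowest value was in KO_117 or in KO_214 for 15 genes each (28.3%, beside 20.6% of all genes for KO_117 and 18.7% for KO_214).

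**Figure D5:**
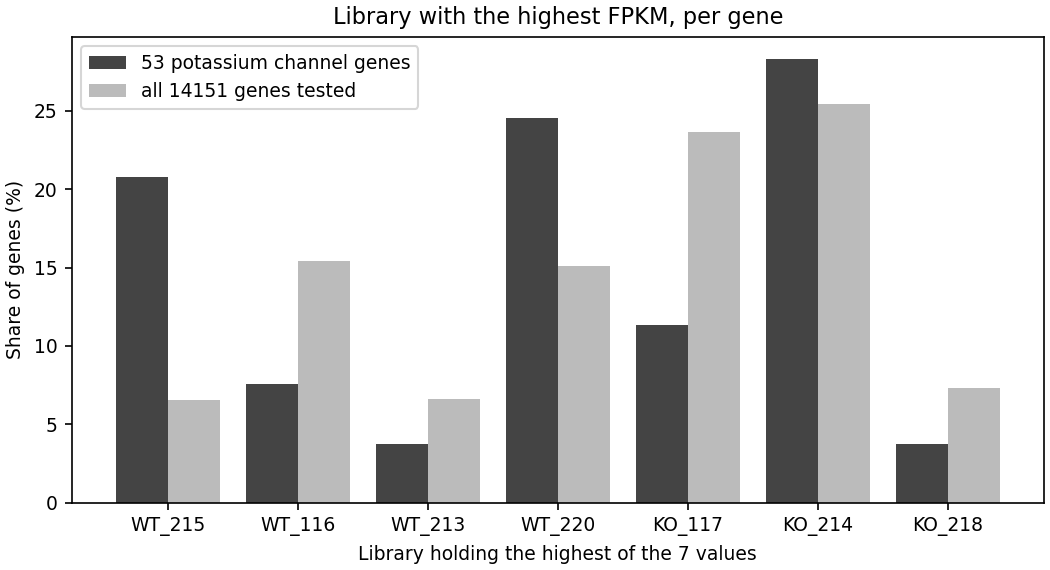
Percent of genes (axis from 0) whose highest FPKM fell in each of the 7 libraries, for the 53 tested potassium channel genes (dark) and all 14151 genes tested (grey). WT_215 and WT_220 hold 20.8% and 24.5% of the channel genes, beside 6.54% and 15.1% of all genes.

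Some channel genes share exons with a gene on the opposite strand, and the library kit does not mark strand, so that reads of the partners cannot be told apart. This holds for 26 of the 92, among them Kcnd3, Kcnma1, Kcnmb4, Kcnk1, Kcnk2, Kcnn2 and Kcna6. On the same strand, Kcnk4 shares exons with Catsperz and Kcnab2 with Gm16334. Kcnmb4os1, antisense to Kcnmb4, was at 7.30, 0.948, 4.65 and 10.9 FPKM in control mice, against 22.3, 1.41 and 3.61 FPKM in Med23 CKO, with its highest value in KO_117 as for Kcnmb4.

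Genes that work beside the channels were read from a list of 35 pumps, cotransporters, pacemaker channels and channel partners, of which 27 were tested. At unadjusted limma p under 0.05, 1 was higher (beside 0.502% of all genes tested), 0 were lower (beside 0.996%), 2 were higher without overlap (beside 0.784%), and the median log2 fold change was 0.08. The higher one was Slc12a7, a potassium-chloride cotransporter that carries both ions out of the cell, at 4.14, 4.64, 6.78 and 2.80 FPKM in control mice, against 7.29, 12.5 and 6.92 FPKM in Med23 CKO. Its groups did not overlap, the log2 fold change was 0.83 with a standard error of 0.31 (exact permutation p = 0.0571), and it left the unadjusted threshold without WT_215, WT_116, WT_220 or KO_214, and with array weights. Amigo1, an adhesion protein that binds delayed rectifier channels, was at 3.27, 3.51, 3.62 and 3.95 FPKM in control mice, against 5.05, 5.05 and 4.17 FPKM in Med23 CKO. The groups did not overlap, the log2 fold change was 0.33 with a standard error of 0.18, and the exact permutation p was the smallest possible here, 0.0286. Amigo1 was named because its groups did not overlap, so a small exact permutation p largely follows from that choice and is no separate support. It did not pass the unadjusted limma threshold. Among the highest genes of the list were the sodium pump subunits Atp1b3, Atp1b1 and Atp1b2 and the chloride importer Slc12a2, with fold changes between -0.15 and 0.14. Dpp6, a partner of A-type channels, was at 18.8, 10.6, 11.4 and 22.7 FPKM in control mice, against 13.8, 7.12 and 6.26 FPKM in Med23 CKO, with a fold change of -0.75, and was chosen after its values were seen. Dpp10, another partner of these channels on the list, had a fold change of 0.09.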

How the data were processed

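RNA-seq libraries of primary neurospheres from 4 control and 3 Med23 CKO mice were grouped by their labels. Per the study's methods the authors made libraries with the NEBNext Ultra kit, removed adapters with cutadapt, used TopHat for alignment to mm10 and Cuffdiff for FPKM, and the FPKM they deposited per library were used. The authors' group means, fold changes, test scores and p-values were not used, and 0 columns lacked a sample. Low FPKM values gave no whole fragments, so depth is unknown.

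Values were analysed as log2(FPKM + 1) for genes with a mean of at least 0.5 FPKM, by limma 3.58.1 (R 4.3.3; lmFit, eBayes with trend) with Benjamini-Hochberg adjustment over 14151 genes, and with an exact permutation test of single genes over 35 arrangements of the labels. The limma fit was tested on simulated data, with noise drawn independently for each gene and 200 genes changed by 2 log2 units. Of these, 190 were at unadjusted p under 0.05 in the right direction, as were 5.54% of unchanged genes in either direction. The simulation held no shifts shared by many genes of a library, so it cannot show how the fit handles those in the real libraries. The members, classes, lists and naming rule were chosen with earlier results of these data known, and the choroid plexus list after the values of Kcnj13 were seen. Genes were named if they passed the unadjusted threshold or did not overlap, had a mean of at least 5 FPKM, led their class, or had the 3 largest fold changes in a direction. Alternatives were another pseudocount, filters, normalizations, limma settings, the exact test, and each library left out. Some genes are not reported here. Promoters came from RefSeq and coordinates from GENCODE M21.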

Additional observations from a re-analysis of the deposited data

Results flagged for a closer look

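In 5 of the 53 tested potassium channel genes (9.43%), 1 of the 4 control libraries lay far from the other 3, beside 3.60% of all genes tested by the same measure, and chance alone would give about 1 in 20. The measure is the gap to the nearest library as a share of the control range of log2(FPKM + 1). WT_116 was the low library for Kcnma1 (0.98), Kcnv1 (0.876) and Kcnip1 (0.858), and the high library for Kcne3 (0.868), which was at 0.856 FPKM beside 0.167, 0.0880 and 0.101 FPKM. WT_215 was the high library for Kcnj13 (0.906), an inward rectifier known from the choroid plexus, at 5.86 FPKM beside 0.104, 0.240 and 0.0383 FPKM in the other control libraries and 0, 0.216 and 0.238 FPKM in Med23 CKO. The choroid plexus list was also highest in WT_215, and its part in Kcnj13 was not tested.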

How the results depend on the processing

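The median log2 fold change of the channel genes stayed below 0 in each alternative run, from -0.34 with a pseudocount of 0.1 to -0.04 without a filter. The count of lower genes, 4, became 2 with quantile normalization, 3 without a filter (Kcna2, Kcnd2 and Kcnu1), 8 with array weights (where the share over all genes also went from 0.996% to 6.27%), 0 with the exact test, and 1 to 8 with single libraries left out. The count of higher genes, 1 (0.502%), became 2 without a filter (0.801%) and 0 at a mean of at least 1 FPKM (0.503%). It became 2 with quantile normalization (0.721%) and 2 with array weights (1.36%). It became 0 with the exact test, and 0 to 3 with single libraries left out (0.318% to 2.5%). Without KO_214 or KO_218 1 gene of the whole table passed the adjusted threshold, and no channel gene did in any alternative. The estimation of the array weights stopped with a convergence warning. The causes were not tested.

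Over 27 named genes and 431 alternatives, 358 kept direction and side of the threshold, 31 left the threshold, 11 passed it and 31 changed direction. With array weights the log2 fold change became -0.12 for Kcnk1, -0.18 for Kcnmb4, 0.54 for Kcnv1, -0.51 for Atp1b2 and 0.14 for Slc12a2, and with median centring it became 0.0053 for Atp1b1. With single libraries left out it changed direction for Kcna6 (-0.15 to 0.071), Kcnab2 (-0.35 to 0.054), Kcnc1 (-0.93 to 0.48), Kcnd3 (-0.96 to 0.31), Kcnj10 (-1.25 to 0.63), Kcnk1 (-0.061 to 0.26), Kcnmb4 (-0.74 to 0.72), Kcnv1 (-0.79 to 1.23), Atp1b1 (-0.23 to 0.25), Atp1b2 (-0.41 to 0.53), Atp1b3 (-0.13 to 0.50) and Slc12a2 (-0.65 to 0.54). No paired analysis was possible because the groups share no mouse numbers. Depth is unknown, and the number of libraries limits the precision.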
